A study of Mus musculus with 20 samples.

Results

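In nuclei labelled excitatory, mouse protein-coding genes were sorted by the histone marks at their ends: trimethylation of histone H3 at lysine 4 (H3K4me3) against trimethylation at lysine 27 (H3K27me3). A gene carried a mark where both libraries of that antibody had at least 1 base of a called peak within 2 kb of either end of the gene. Of 21631 genes, 10146 carried H3K4me3 alone, 4194 carried both marks, 3307 carried H3K27me3 alone and 3984 carried neither, so 17647 genes had at least 1 mark. The series holds 20 CUT&RUN libraries (antibody-directed cutting and sequencing of chromatin in intact nuclei) in 10 groups of 2: antibodies against H3K4me3, H3K27me3, H3K4me1, H3K27ac and the transcription factor EGR1, each in excitatory and in inhibitory nuclei. All came from whole brain of 8-week-old mice of genotype Sun1 f/f | Emx1Cre (+), excitatory and inhibitory alike, and nuclei had been sorted by flow cytometry. Emx1 drives Cre in the dorsal telencephalon, so in this model the tagged lineage is that of cortex and hippocampus. How the gate took inhibitory nuclei was not stated in the labels. Whether paired libraries of a group stem from separate animals is not stated, so p-values measure only the spread between libraries, and 2 against 2 libraries cannot give an exact permutation p below 0.333.

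H3K4me3 is laid down by the SET1 and MLL (KMT2) methyltransferase complexes and marks the starts of active or poised genes, above all those in CpG islands. H3K27me3 is laid down by Polycomb repressive complex 2, whose catalytic subunits are EZH1 and EZH2, and marks genes held silent, among them developmental regulators of other lineages. Promoters with both marks were first described as bivalent in embryonic stem cells. A peak list of sorted nuclei cannot tell marks on the same nucleosome from marks on different alleles or nuclei, and a mark on fewer nuclei cannot be told apart from less of the mark per nucleus.

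One promoter is shown for each class, 250 bases before to 50 bases after the RefSeq start on GRCm38.p6 (the assembly of mm10), written 5′ to 3′ on the strand of the gene with each CpG in capitals, because the classes differed in CpG density. Gapdh, a glycolytic enzyme gene of the H3K4me3-only class (chr6:125165724-125166023, minus strand), had 12 CpGs. Slc17a7, which encodes the vesicular glutamate transporter VGLUT1 and carried both marks (chr7:45163671-45163970, plus strand), had 13. Tbr1, a T-box factor of deep-layer cortical projection neurons in the H3K27me3-only class (chr2:61804203-61804502, plus strand), had 7, and Gabra6, a GABA-A receptor subunit gene of cerebellar granule cells with neither mark (chr11:42321023-42321322, minus strand), had 2. The start used for Gapdh lies 694 bases and that for Tbr1 1590 bases inside the annotated gene.
Gapdh: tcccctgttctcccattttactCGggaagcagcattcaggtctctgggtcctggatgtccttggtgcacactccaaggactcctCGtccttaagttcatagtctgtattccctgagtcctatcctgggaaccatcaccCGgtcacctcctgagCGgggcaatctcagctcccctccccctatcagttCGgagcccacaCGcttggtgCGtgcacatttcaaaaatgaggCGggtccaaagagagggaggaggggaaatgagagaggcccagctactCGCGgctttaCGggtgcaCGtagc
Slc17a7: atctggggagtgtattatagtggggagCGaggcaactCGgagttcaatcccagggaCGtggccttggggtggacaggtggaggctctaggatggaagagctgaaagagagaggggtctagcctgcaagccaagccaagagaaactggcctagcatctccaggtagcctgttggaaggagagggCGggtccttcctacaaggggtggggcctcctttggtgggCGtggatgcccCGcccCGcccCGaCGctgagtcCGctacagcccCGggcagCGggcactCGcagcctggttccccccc
Tbr1: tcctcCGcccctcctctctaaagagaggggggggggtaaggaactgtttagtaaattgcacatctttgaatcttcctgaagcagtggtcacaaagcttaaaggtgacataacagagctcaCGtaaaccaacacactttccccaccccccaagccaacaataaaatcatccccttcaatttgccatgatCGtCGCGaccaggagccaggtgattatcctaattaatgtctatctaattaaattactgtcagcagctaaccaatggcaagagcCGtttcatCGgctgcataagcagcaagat
Gabra6: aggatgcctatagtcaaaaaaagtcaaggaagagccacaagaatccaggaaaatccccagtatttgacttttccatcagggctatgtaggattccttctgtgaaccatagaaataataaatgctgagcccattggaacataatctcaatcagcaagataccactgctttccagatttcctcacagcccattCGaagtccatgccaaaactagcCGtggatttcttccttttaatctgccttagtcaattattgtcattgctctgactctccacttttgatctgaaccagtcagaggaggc

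Depth is unknown, since peak lists carry no read counts. The excitatory H3K4me3 lists held 79135 and 163053 peaks and the excitatory H3K27me3 lists 231996 and 246064, while the inhibitory lists held 159364 and 83532 H3K4me3 peaks and 313235 and 265968 H3K27me3 peaks. Weak peaks were kept in the lists, up to p-values of 0.0483 and 0.0494 for excitatory H3K4me3 and 0.0999 for excitatory H3K27me3: 28.4% and 26.5% of excitatory H3K4me3 peaks had a q-value below 0.05 from the authors' caller, against 0.00647% and 0.00488% of excitatory H3K27me3 peaks. Cut into 642682 windows of 4001 bases, the genome had H3K4me3 in both excitatory libraries in 7.62% of windows, against 62.6% of gene starts. H3K27me3 was in 27.4% of starts against 23.7% of windows, so at the deposited threshold its presence at a start was close to the rate of the genome. Kept to peaks whose -log10 p reached 2, H3K27me3 was in 3.85% of starts against 1.16% of windows. Taking the 79135 strongest peaks of each library, it was in 9.82% against 4.78%, and both of these window shares were computed after the data had been seen.

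The marker genes did not sort the nuclei by these marks. Among the excitatory markers, Slc17a7, Slc17a6, Neurod6, Neurod2, Camk2a and Emx1 carried both marks in excitatory nuclei and Tbr1 carried H3K27me3 alone, and all 7 inhibitory markers, Gad1, Gad2 and Slc32a1 among them, carried both. EGR1 went with the labels: peaks in both libraries were at 20 of 24 excitatory forebrain genes in excitatory nuclei and at 16 in inhibitory nuclei, and at 6 of 24 inhibitory neuron genes in excitatory nuclei and at 11 in inhibitory nuclei, against 63.4% of all genes in excitatory and 57.5% in inhibitory nuclei. H3K27ac was at 12 of the same inhibitory neuron genes in excitatory nuclei and at 5 in inhibitory nuclei, the other way from the labels, and at 20 of the 24 excitatory forebrain genes in excitatory nuclei and at 13 in inhibitory nuclei, the way of the labels. All genes stood at 60.1% in excitatory and 57.8% in inhibitory nuclei. Markers of glia and vessels were mostly under H3K27me3: excitatory H3K27me3 was at 13 of 14 astrocyte, 10 of 14 oligodendrocyte, 8 of 14 microglial and 13 of 14 vascular genes, and excitatory H3K4me3 at 11, 7, 3 and 7 of them. Among all genes H3K27me3 was at 34.7% and H3K4me3 at 66.3%. These counts rest on weak H3K27me3 peaks. With -log10 p of at least 2, both marks were at 3 astrocyte, 0 oligodendrocyte, 1 microglial and 1 vascular genes. H3K27me3 alone was then at 0, 0, 0 and 2 of them, and 788 of all 21631 genes carried both marks. With at least 3, H3K27me3 was at 0 genes of the 4 lists. In a shorter fixed list of such markers, H3K4me3 coverage was 0 in both excitatory libraries at Aqp4, Cx3cr1, P2ry12, Pecam1 and Cdh5. It was above 0 in 1 library at Aldh1l1, Sox10, Mog, Csf1r and Aif1. It was above 0 in both libraries at Gfap, Slc1a3, Olig1, Olig2, Mbp, Cldn5 and Flt1. P2ry12 had 0% H3K27me3 as well. The part of other cells in the classes was not tested.

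The H3K4me3-only class made up 46.9% of genes, both marks 19.4%, H3K27me3 only 15.3% and neither 18.4%. H3K4me3 was in both excitatory libraries at 66.3% of genes and H3K27me3 at 34.7%. These classes are the product of the rule and are described with no test. The H3K27me3 classes rest on weak peaks: with -log10 p of at least 2 the both-marks class held 788 genes and the H3K27me3-only class 454, with at least 3 they held 10 and 11, and with equal numbers of strongest peaks 1874 and 1368. The H3K4me3-only class kept 99.1% of its genes at -log10 p of at least 2, the both-marks class 18.8% and the H3K27me3-only class 12.9%. H3K27me3 only was also a statement about 1 H3K4me3 library: 34.3% of its genes had H3K4me3 in the larger list of replicate 2 and 10.6% in replicate 1, and without replicate 1 the class shrank to 2174 genes. Nearest the limit of 2 kb, Tex35 lay just inside with an H3K4me3 peak at 1999 bases and Adam3 just outside at 2004, and for H3K27me3 Pth lay inside at 2000 and Mmadhc outside at 2002.

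Strand was known for 17274 genes, those with a RefSeq promoter entry, which allowed starts to be told from other ends. Both marks were more often at starts than at other ends. Where a gene carried H3K4me3 alone, the mark was at the start in 97.1% of genes with known strand. Where it carried both, H3K4me3 was at the start in 88.0% and H3K27me3 in 82.2%, and both were at the start in 72.6%. H3K4me3 was also at the other end in 26.2% of H3K4me3-only and 26.8% of both-marks genes, and H3K27me3 in 51.03% of both-marks and 64.6% of H3K27me3-only genes. Sorted by the start alone, 8484 genes had H3K4me3 only, 2321 both marks, 2415 H3K27me3 only and 4054 neither. At 1564 of the 2321 starts with both marks (67.4%) at least 1 base lay under peaks of all 4 libraries. Over the 1960 starts with bases common to both libraries of each mark, a median 47.5% of the H3K4me3 bases lay under H3K27me3.

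Around starts with both marks, H3K27me3 peaks lay over 52.9% and 55.8% of starts in the excitatory libraries and over 13.1% and 15.1% of positions 5 kb upstream. These starts were chosen for excitatory H3K27me3 within 2 kb, so the rise in the excitatory libraries follows from the rule. The inhibitory libraries, which the sorting did not use, showed the same shape, with H3K27me3 over 59.5% and 56.3% of these starts and over 12.3% and 12.1% 5 kb upstream. At H3K4me3-only starts, where the rule itself keeps excitatory H3K27me3 low, the inhibitory libraries had H3K27me3 over 5.004% and 5.49% of starts and over 14.3% and 11.9% of positions 5 kb upstream. H3K4me3 at both-marks starts was less frequent over the start than at H3K4me3-only starts in every library, 62.6% and 70.9% against 81.4% and 85.8% in excitatory nuclei, and 61.9% and 64.2% against 85.4% and 87.5% in inhibitory nuclei.

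**Figure D1:**
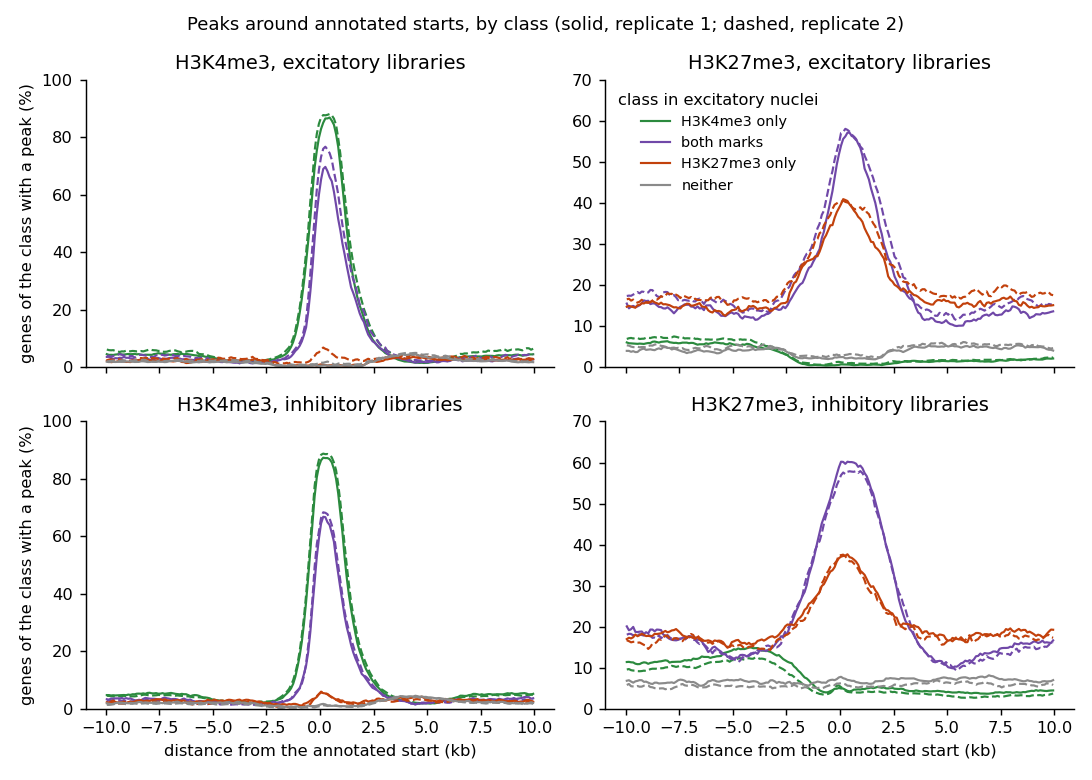
Share of starts of each class (y axis, percent) with a peak at each distance from the annotated start (x axis, kb, gene strand), for H3K4me3 (left) and H3K27me3 (right) in excitatory libraries (top) and inhibitory libraries (bottom). Lines are single libraries and classes were set in excitatory nuclei at the start alone; H3K27me3 peaks at both-marks starts reach 57.1% and 58.0% in excitatory libraries and 60.2% and 57.9% in inhibitory libraries.

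Genes of cell maintenance and general neuronal function carried H3K4me3 alone. All 20 housekeeping genes were in that class, as were 20 of 22 pan-neuronal genes, among them Snap25 and Syt1 of the synaptic release machinery and Rbfox3, which encodes the neuronal nuclear antigen NeuN, against 46.9% of all genes. The 2 exceptions, the neurofilament genes Nefl and Nefh, carried both marks. Gapdh was covered by H3K4me3 over 23.3% and 30.7% of the bases within 2 kb of its ends (the measure of coverage used for every gene named) in excitatory libraries and over 28.4% and 36.2% in inhibitory libraries, with 0% H3K27me3 in all 4. Genes for H3K4 methylation and for Polycomb complexes, enzymes and other subunits alike, were themselves mostly in this class. It held 15 of 17 genes of the H3K4 methyltransferase and demethylase list, such as Kmt2a and Kmt2b. It also held 21 of 29 Polycomb genes, Ezh1, Ezh2, Suz12 and Eed included. Another 7 Polycomb genes carried both marks, among them Bmi1, Cbx2 and Cbx8, and Cbx7 carried neither. At Bmi1 the marks lay at different ends of the gene. With -log10 p of at least 2, both marks were at 1 of 29 Polycomb genes. All 22 pan-neuronal genes then carried H3K4me3 alone, Nefl and Nefh included. By the lower of 2 excitatory values, the leading H3K4me3-only genes were H2ac20 and H2ac21, histone H2A genes that lie next to each other and share their window, each with 69.8% and 68.0% in excitatory libraries, then Cryzl1 (64.3% and 71.0%) and Bad, which encodes a proapoptotic BCL2-family protein (62.8% and 71.2%).

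Genes that specify other lineages and body regions carried H3K27me3, with or without H3K4me3. Of 40 genes for ligands and antagonists of the Wnt, hedgehog, BMP and FGF pathways, 36 carried both marks, 3 H3K27me3 alone and 1, Chrd, H3K4me3 alone, where 19.4% of all genes carried both. All 46 homeobox, paired and LIM genes carried H3K27me3 (30 with and 16 without H3K4me3), as did 38 of 39 SOX, FOX, GATA and T-box genes, 26 of 28 basic helix-loop-helix genes and 36 of 39 HOX genes, against 34.7% of all genes. HOX genes, which pattern the hindbrain, spinal cord and trunk, were split into 19 with both marks, 17 with H3K27me3 alone and 3 with neither, and neighbouring HOX genes share windows. Wnt1, a midbrain and hindbrain patterning ligand (chr15:98789857-98793830), had 5.43% and 22.7% H3K4me3 and 37.0% and 38.4% H3K27me3 in excitatory libraries. Atoh1, a proneural factor of cerebellar granule cell precursors, had 55.3% and 59.2% H3K27me3, with H3K4me3 at 0% and 21.6%. The H3K4me3 of these genes was thus called in both libraries at Wnt1 and in 1 at Atoh1. At -log10 p of at least 2, H3K27me3 remained in both libraries with H3K4me3 at 8 of the 40 ligand genes, 7 of the 46 homeobox genes, 2 of 39 SOX, FOX, GATA and T-box genes, 4 of 28 helix-loop-helix genes and 3 of 39 HOX genes, and at that setting 788 of all 21631 genes carried both. Without H3K4me3 replicate 1, 33 HOX genes carried both marks and 3 H3K27me3 alone, as did 43 and 3 homeobox genes and 34 and 4 SOX, FOX, GATA and T-box genes.

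**Figure D2:**
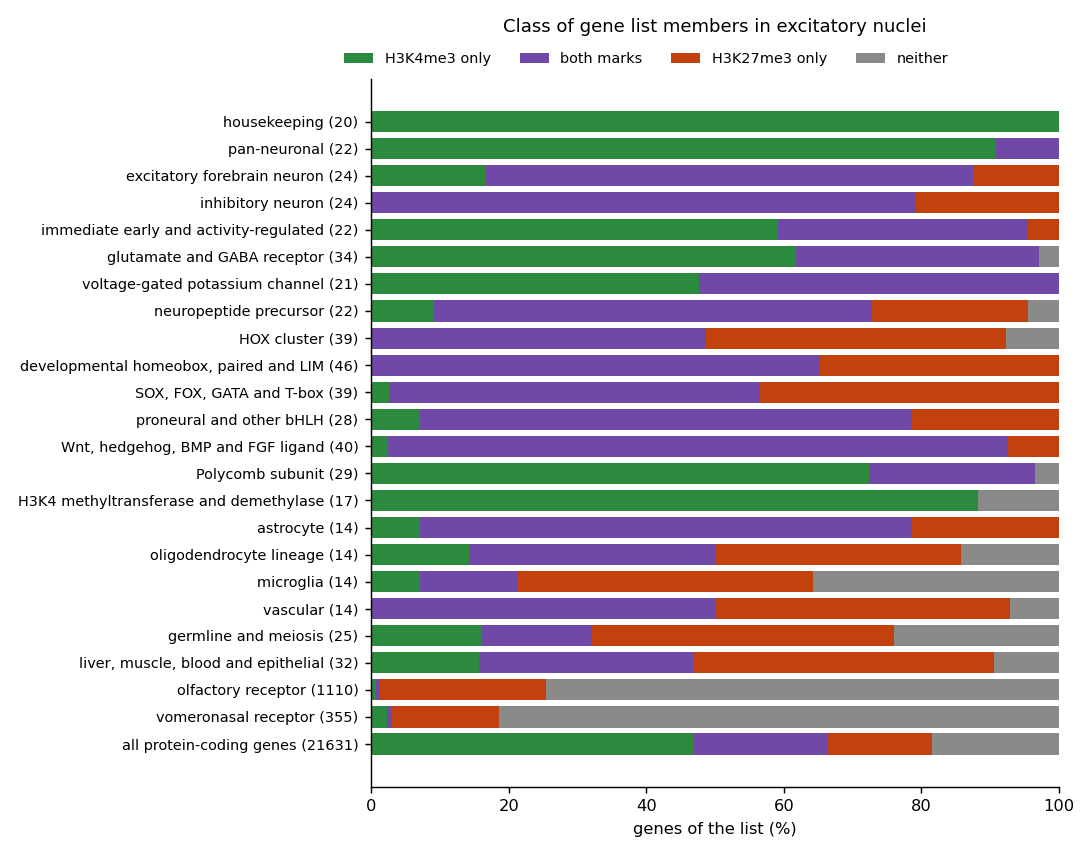
Share of the members of each gene list in each class (x axis, percent of the list; number of members in brackets), in excitatory nuclei, with all protein-coding genes at the bottom. Housekeeping genes are all H3K4me3 only, 36 of 40 Wnt, hedgehog, BMP and FGF genes carry both marks, and 828 of 1110 olfactory receptor genes carry neither.

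Identity genes of both neuron types carried both marks. Of 24 excitatory forebrain genes, 17 carried both, 3 H3K27me3 alone (Tbr1 and Pax6 among them) and 4 H3K4me3 alone (Cux1, Rorb, Lmo4 and Mef2c), where 19.4%, 15.3% and 46.9% of all genes did. Of 24 inhibitory neuron genes, 19 carried both and 5 H3K27me3 alone, among them Lhx8 and Sp8, transcription factors of inhibitory lineages, and the neuropeptide genes Sst and Vip. At Slc17a7, H3K4me3 covered 9.90% and 30.7% in excitatory libraries and 33.3% and 36.9% in inhibitory libraries, and H3K27me3 covered 19.9% and 24.99% in excitatory libraries against 5.54% and 14.9% in inhibitory libraries. Both excitatory H3K27me3 values thus lay above both inhibitory ones, and both excitatory H3K4me3 values lay below, at the gene that marks excitatory neurons. Tbr1 had H3K4me3 at 0% and 12.0% in excitatory libraries against 34.3% and 35.9% in inhibitory libraries, and H3K27me3 at 26.3% and 28.7% against 34.2% and 41.7%. Neurod2, a helix-loop-helix factor of cortical excitatory neurons, had 31.5% and 35.1% H3K27me3 in excitatory libraries and 0% in both inhibitory ones, with H3K4me3 at 24.0% and 26.6% against 27.6% and 32.3%. Gad1, the GABA-synthesizing enzyme gene, had 6.42% and 7.02% H3K4me3 in excitatory libraries against 7.51% and 6.59% in inhibitory libraries, values that overlap, and H3K27me3 at 54.1% and 29.3% against 15.6% and 32.1%. With -log10 p of at least 2, 1 excitatory forebrain gene and 7 inhibitory neuron genes still carried both marks, as did 788 of all 21631 genes. Without H3K4me3 replicate 1, none of either list carried H3K27me3 alone, and both marks were at 20 of the excitatory forebrain genes and all 24 inhibitory neuron genes.

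**Figure D3:**
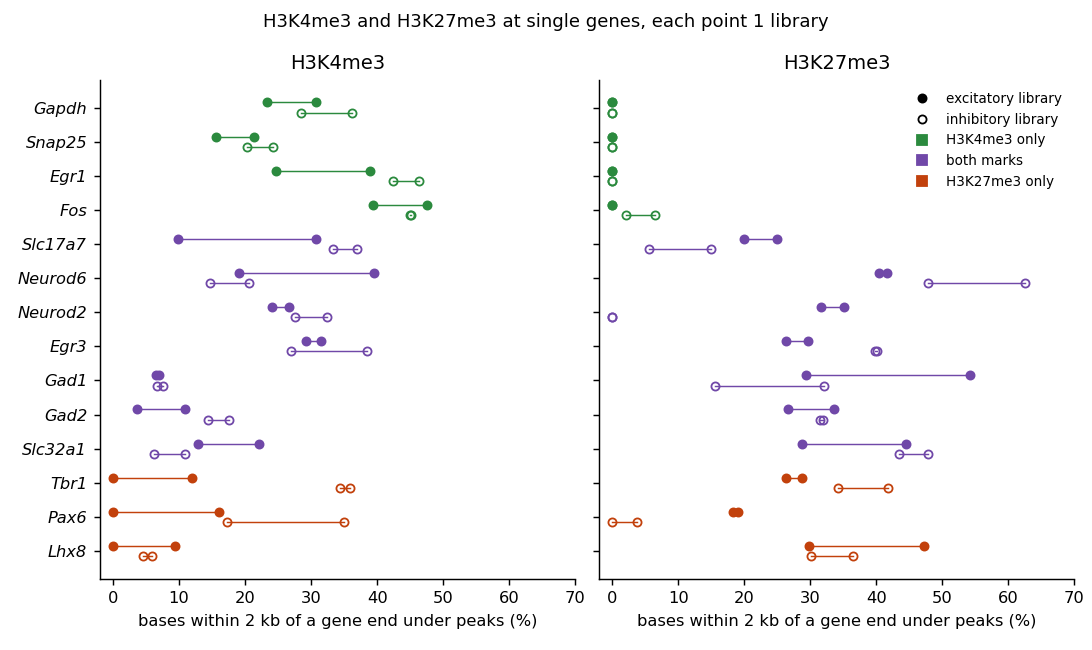
Percent of bases within 2 kb of either gene end under peaks (x axis) for single genes, H3K4me3 left and H3K27me3 right. Each point is 1 library, filled for excitatory and open for inhibitory, joined within a group, and colours give the class in excitatory nuclei; Gapdh, Snap25 and Egr1 have 0% H3K27me3 in every library, and Tbr1, Pax6 and Lhx8 have 0% H3K4me3 in 1 of 2 excitatory libraries.

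Genes that neurons switch on with activity carried H3K27me3 at about the rate of all genes. Of 22 immediate early and activity-regulated genes, 13 carried H3K4me3 alone, among them Egr1, Fos, Arc and Npas4, and 8 carried both, among them Egr3, Egr4, Fosb and Bdnf. H3K27me3 was thus at 9 of 22, beside 34.7% of all genes, and without H3K27me3 replicate 1 both marks were at 11 of 22 and H3K27me3 alone at 1. Egr2, a zinc-finger factor that in the hindbrain also patterns rhombomeres, was the 1 with H3K27me3 alone, at 25.1% and 50.6% in excitatory libraries, with H3K4me3 at 0% and 5.64%. Fos had 39.4% and 47.5% H3K4me3 and 0% H3K27me3 in excitatory libraries, and 45.1% and 44.9% H3K4me3 with 2.004% and 6.42% H3K27me3 in inhibitory libraries, so its H3K4me3 overlapped between the types and its H3K27me3 did not. Ion channel and receptor genes divided between H3K4me3 alone (46.9% of all genes) and both marks (19.4%): 21 of 34 glutamate and GABA receptor genes carried H3K4me3 alone and 12 both, and 10 of 21 voltage-gated potassium channel genes carried H3K4me3 alone and 11 both. H3K27me3 at 12 of 34 receptor genes and H3K4me3 alone at 10 of 21 channel genes lie near the shares of all genes. Of the neuropeptide precursors 14 of 22 stood under both marks, such as Npy, Cck and Penk, and 5 under H3K27me3 alone, among them Avp and Oxt, where 19.4% and 15.3% of all genes did. The H3K27me3 counts of these lists rest on weak peaks. With -log10 p of at least 2, both marks were at 1 of 22 activity-regulated, 0 of 34 receptor, 0 of 21 channel and 6 of 22 neuropeptide genes. H3K27me3 alone was then at 0, 0, 0 and 2 of them, and 788 of all 21631 genes carried both marks.

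Ranked by the lowest of their 4 excitatory values, 2 for each mark, the leading both-marks genes were Sstr4, a somatostatin receptor gene, Adra1d, an adrenergic receptor gene, Rpp25, Rab37, Inppl1 and Kcna3. Sstr4 (chr2:148395377-148396764) had 62.8% and 50.2% H3K4me3 and 59.8% and 55.9% H3K27me3 in excitatory libraries. In inhibitory libraries its H3K27me3 was 67.1% and 60.3% and its H3K4me3 11.9% and 3.34%. Rab37, a small GTPase gene, had 44.8% and 60.4% H3K27me3 in excitatory libraries against 0% in both inhibitory libraries, with H3K4me3 at 42.2% and 36.6% against 42.4% and 44.6%. The ranking picked high excitatory values, so lower inhibitory values at these genes are no result about the neuron types. By the lower of 2 excitatory H3K27me3 values, the leading H3K27me3-only genes were Pyy, which encodes the gut hormone peptide YY (67.6% and 75.1% in excitatory libraries, 81.9% and 74.9% in inhibitory libraries, and 0% H3K4me3 in all 4), Utf1, a factor of pluripotent cells, Ferd3l, a helix-loop-helix factor, Ifitm3, an antiviral membrane protein gene, Cldn6, a claudin gene, and Fam107a.

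Genes of surface tissues, immunity and chemosensation were frequent in the H3K27me3-only class and among genes with neither mark. Counting symbols that share a letter stem and have at least 30 genes, H3K27me3 alone was carried by 42 of 53 keratin genes (Krt), 40 of 56 keratin-associated protein genes (Krtap), 22 of 33 C-type lectin genes (Clec), 22 of 42 beta-defensin genes (Defb) and 38 of 83 genes of the interleukin stem (Il), where 15.3% of all genes did. Neither mark was carried by 828 of 1110 olfactory receptor genes, 289 of 355 vomeronasal receptor genes and 32 of 33 Rhox homeobox genes, where 18.4% of all genes carried neither. Collagen genes stood under both marks in 29 of 44 cases, and mitochondrial ribosome genes (Mrpl) under H3K4me3 alone in 47 of 49. Such families lie in clusters and their members share windows. With -log10 p of at least 2, the H3K27me3-only class kept 12.9% of its genes, and the families were not counted at that setting. A gene without a peak may still carry the mark below the threshold. Of the X-linked genes 49.5% carried neither mark and 4.55% both, against 17.0% and 20.1% of autosomal genes. Median gene length was 22.2 kb for H3K4me3 only, 25.2 kb for both marks, 12.2 kb for H3K27me3 only and 5.03 kb for neither, and another gene end lay within 2 kb for 47.5%, 29.97%, 15.1% and 11.9% of these genes.

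EGR1, H3K27ac and H3K4me1, which the sorting did not use, were ordered by class. EGR1 peaks were near 97.3% and 97.4% of H3K4me3-only genes in the 2 excitatory libraries, 81.1% and 81.2% of both-marks genes, 18.2% and 18.9% of H3K27me3-only genes and 9.71% and 9.61% of genes with neither, against 65.9% and 66.1% of all genes. The classes differed by far more than the libraries. H3K27ac, a mark of active promoters and enhancers, was near 93.2% and 97.4% of H3K4me3-only genes, 71.6% and 88.8% of both-marks genes, 19.3% and 44.3% of H3K27me3-only genes and 11.7% and 22.1% of genes with neither. Within each library H3K27me3-only genes lay above genes with neither, while across libraries the values of these 2 classes overlapped. H3K4me1, found at enhancers and beside promoters, did not set the first 2 classes apart in the same way: it was near 96.6% and 97.2% of H3K4me3-only and 96.0% and 94.7% of both-marks genes, then 54.9% and 47.5% of H3K27me3-only genes and 24.8% and 21.6% of genes with neither. Genes are not replicates and no test was made over them. In both libraries at once, EGR1 was at 96.6% of H3K4me3-only genes, 76.0% of both-marks, 13.4% of H3K27me3-only and 7.38% of genes with neither, against 63.4% of all genes. H3K27ac was in both libraries at 91.9%, 68.0%, 14.2% and 8.94% of these classes in the same order (60.1% of all genes), and H3K4me1 at 94.9%, 92.4%, 39.2% and 18.02% (71.7% of all genes). Genome windows of 4001 bases carried EGR1 in 11.7%, H3K27ac in 13.7% and H3K4me1 in 31.0% of cases, while a gene has 2 such windows. The H3K4me1 lists were weak: 0.00870% and 0.219% of their excitatory peaks had a q-value below 0.05.

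H3K4me1 in both libraries without H3K27ac in both was at 26.8% of both-marks genes and 27.7% of H3K27me3-only genes, against 6.45% of H3K4me3-only genes and 10.4% of genes with neither. A gene with H3K27ac in 1 library counted as without, so these shares are not of genes free of H3K27ac. In excitatory replicate 2, H3K27ac was near 88.8% of both-marks genes and 44.3% of H3K27me3-only genes. The position of H3K4me1 also differed. At starts with both marks it lay over the start itself in 45.3% and 55.4% of cases and 1 kb downstream in 38.6% and 45.6%, while at H3K4me3-only starts it lay over the start in 15.2% and 22.4% and 1 kb downstream in 34.3% and 39.8%. Both-marks starts were above H3K4me3-only starts in both libraries at the start itself. EGR1 lay over 39.4% and 40.2% of both-marks starts against 78.3% and 79.5% of H3K4me3-only starts. Of the 39 HOX genes, EGR1 was in both excitatory libraries at 1, H3K27ac at 0 and H3K4me1 at 7.

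**Figure D4:**
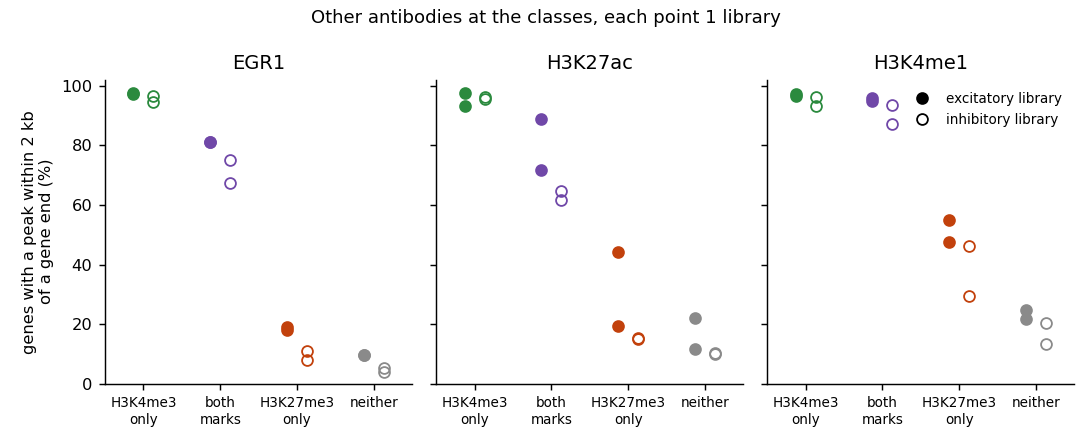
Share of genes of each excitatory class (y axis, percent) with a peak of EGR1, H3K27ac or H3K4me1 within 2 kb of a gene end. Each point is 1 library, filled for excitatory and open for inhibitory; in the excitatory libraries EGR1 is at 97.3% and 97.4% of H3K4me3-only genes and at 9.71% and 9.61% of genes with neither, and H3K4me1 is at 96.0% and 94.7% of both-marks genes.

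The sequence of the promoters, which the rule did not use either, was richest in CpGs where H3K4me3 was present. RefSeq promoters were matched to 79.9% of genes, and to fewer than 80% of the both-marks (76.2%) and H3K27me3-only (79.2%) classes, so a comparison over the classes by either end is void, and composition is given for the classes set at the start, where every gene has a sequence. The median ratio of observed to expected CpGs was 0.793 at H3K4me3-only starts, 0.643 at both-marks starts, 0.228 at H3K27me3-only starts and 0.168 at starts with neither. With -log10 p of at least 2 the both-marks median was 0.596 over 398 starts and the H3K27me3-only median 0.336 over 267. With at least 3 the gap was gone, at 0.606 over 6 starts and 0.602 over 7. A ratio of at least 0.6 was found in 77.6%, 55.5%, 11.2% and 7.79% of these promoters and in 49.0% of all. Median GC content was the same for the first classes, 61.3% at both, and 50.7% for H3K27me3 only and 44.7% for neither. In the printed examples Gapdh had a ratio of 0.501, Slc17a7 0.438, Tbr1 0.453 and Gabra6 0.155. Tbr1 is thus well above the median of its class, while Gapdh and Slc17a7 lie below theirs. By this ratio the examples do not show the order of the classes.

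**Figure D5:**
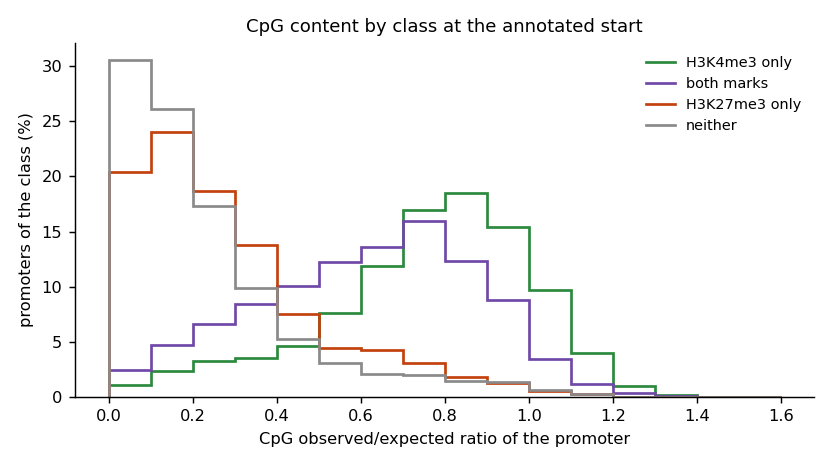
Distribution of the CpG observed/expected ratio (x axis) over promoters of each class at the annotated start (y axis, percent of the class, bins of 0.1). H3K4me3-only and both-marks promoters have medians of 0.793 and 0.643, and H3K27me3-only and neither 0.228 and 0.168.

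Motifs were counted as exact letters on either strand of the same 300 bases. GGGCGG, the core bound by SP factors, was in 66.4% of H3K4me3-only, 63.0% of both-marks, 21.2% of H3K27me3-only promoters and 12.1% of promoters with neither, against 46.9% of all. TATAAA, the TATA box, ran the other way, in 6.36%, 9.65%, 20.1% and 26.4% of the classes and 13.4% of all. CAGATG, an E-box read by proneural factors, was in 10.997%, 12.2%, 19.7% and 21.0% (14.7% of all), and CCAAT in 40.0%, 34.9%, 35.9% and 43.6% (39.6% of all). The EGR1 motif GCGTGGGCG, which overlaps GGGCGG where a G follows it, was in 1.32%, 0.948%, 0.166% and 0.197% (0.845% of all), and the cyclic AMP response element TGACGTCA in 3.65%, 2.24%, 0.663% and 0.715% (2.36% of all). The part of base composition in these shares was not tested.

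In inhibitory nuclei, sorted by the same rule, 8868 genes carried H3K4me3 alone (41%), 5310 both marks (24.5%), 3611 H3K27me3 alone (16.7%) and 3842 neither (17.8%). H3K4me3 was then in both libraries at 65.5% of genes and H3K27me3 at 41.2%, and H3K4me1 at 65.5%. The class was the same in both types for 16607 genes (76.8%). Of the excitatory H3K4me3-only genes 80.3% kept their class in inhibitory nuclei, of both-marks genes 73.5%, of H3K27me3-only genes 68.7% and of genes with neither 78.1%. The commonest change was 1739 genes with H3K4me3 alone in excitatory and both marks in inhibitory nuclei, against 526 the other way round. The inhibitory H3K27me3 lists were also longer, and the part of peak number in this was not tested. Glutamate and GABA receptor genes moved with that majority: 12 of 34 carried H3K27me3 in excitatory and 19 in inhibitory nuclei. The excitatory forebrain genes went against it, with H3K27me3 at 20 of 24 in excitatory and 15 in inhibitory nuclei. Gria1, an AMPA receptor subunit gene, had 15.7% and 18.8% H3K4me3 in excitatory libraries and 0% in both inhibitory libraries, with H3K27me3 at 17.1% and 21.4% against 46.0% and 20.9%. Cck, a neuropeptide gene, had 23.8% and 25.8% H3K4me3 in excitatory against 0% and 2.249% in inhibitory libraries, and H3K27me3 of 37.2% and 25.9% against 36.5% and 35.2%. Grin2c, an NMDA receptor subunit gene of the cerebellum, had 59.2% and 57.1% H3K27me3 in excitatory libraries and 0% in both inhibitory ones. Gabra6 had 0% and 8.17% H3K4me3 in excitatory against 27.6% and 33.1% in inhibitory libraries, and no H3K27me3 in any.

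Whether the other antibodies differed between the neuron types at genes of each class was tested with limma on the percent of bases near gene ends under peaks. For EGR1 0 of 14310 genes (0%) passed a Benjamini-Hochberg adjusted p of 0.05, with 2107 at an unadjusted p under 0.05, and for H3K27ac 0 of 14869 (0%), with 2045. For H3K4me1 126 of 16767 genes (0.751%) were higher in excitatory and 93 (0.555%) lower. By class, 43 of 10018 H3K4me3-only genes tested (0.429%), 37 of 4092 both-marks genes (0.904%), 25 of 1745 H3K27me3-only genes (1.43%) and 21 of 912 genes with neither (2.303%) were higher, and 24 (0.240%), 24 (0.587%), 29 (1.66%) and 16 (1.75%) were lower. A gene covered in 2 libraries of 1 type alone could enter the fit, so these shares are no result about the classes. With coverage in all 4 libraries, 15, 12, 1 and 1 genes were higher and 5, 11, 7 and 3 lower, in the same order. With no filter on coverage 0 were called. Vgf, which encodes an activity-regulated neuropeptide precursor and carried both marks, had 47.3% and 56.8% H3K4me1 in excitatory against 9.55% and 0% in inhibitory libraries, a normalized difference of 46.1 points ± 7.61 (SE; limma adjusted p = 0.0178). Kcna5, a potassium channel gene with both marks, had 37.6% and 58.1% against 3.80% and 0%, a difference of 43.9 ± 7.58 (limma adjusted p = 0.0222). Slc4a4, a sodium bicarbonate cotransporter gene with both marks that is abundant in astrocytes, was lower, with 1.29% and 8.30% in excitatory against 53.8% and 55.4% in inhibitory libraries, a difference of -51.2 ± 7.56 (limma adjusted p = 0.0135). Among H3K27me3-only genes Spp2, which encodes a secreted phosphoprotein, had 48.3% and 54.7% against 3.67% and 0%, and Cbfa2t3, a transcriptional corepressor gene, 10.96% in both excitatory against 56.7% and 56.4% in inhibitory libraries. These calls rest on single libraries and settings: limma called 0 genes for H3K4me1 without either inhibitory library, without quantile normalization and at equal peak numbers, 1087 without excitatory replicate 1 and 1505 without excitatory replicate 2. At equal peak numbers the difference for Vgf was -1.94 points. For H3K27ac limma called 757 genes without excitatory replicate 1 and 998 without excitatory replicate 2.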

How the data were processed

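Peaks at gene ends were compared across the 20 libraries of the series, grouped and numbered by their titles. Per the submitters' processing notes the tools were MACS2 2.2.5, SAMtools 1.12, Bowtie2 2.3.5, Trim Galore 0.5.0, cutadapt 1.18 and Picard 2.25.0 on the build mm10. Settings and control libraries: not given in the sources used here. Each library has its own list of peaks as the authors deposited it, narrow for H3K4me3, H3K27ac and EGR1 and broad for H3K27me3 and H3K4me1. Its columns are a fold enrichment (a ratio), a −log10 p-value, a −log10 q-value, an integer score and, in narrow lists, a summit offset, all deposited values of the authors' caller. They were used only to filter or rank peaks within a list. Depth is unknown, so counting error has no interval. A longer or more lenient list puts more genes under a mark.

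Peaks on chromosomes 1 to 19 and X were set against 21631 RefSeq protein-coding genes of GRCm38.p6, the assembly behind mm10, with positions counted from 1. Strand and sequence came from RefSeq promoters of 17274 genes. Coverage is the percent of bases within 2 kb of either gene end under peaks. For EGR1, H3K27ac and H3K4me1 it was quantile-normalized over 4 libraries and fitted with limma 3.58.1 (lmFit, eBayes with trend; R 4.3.3) for genes covered in at least 2 libraries, with two-sided tests and Benjamini-Hochberg adjustment over all genes tested. Differences are excitatory minus inhibitory on the normalized scale, and the levels beside them are not normalized. Python 3.11.15 did the rest.

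The classes, gene lists and named genes were chosen with earlier results of these data known, so a list's count is a description and no independent evidence. Genes were named by a rule: up to 3 per class from each list, the 6 with the highest lowest-library coverage in each marked class, up to 3 limma calls per class and direction with the largest difference, and fixed neuron and activity genes. Some genes are not reported here. Members counted by name in a sentence (exceptions of a list) were named after their class was seen. Alternatives covered the window, the peak threshold, the bases required, equal peak numbers, each library left out, isolated genes and the settings of the limma fit.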

Additional observations from a re-analysis of the deposited data

Results flagged for a closer look

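Among the listed genes, 2 changed from one mark alone to the other between the neuron types, with every library of a mark on one side of those of the other in each type. Of all 21631 genes, 133 carried H3K4me3 alone in excitatory and H3K27me3 alone in inhibitory nuclei, and 59 the reverse. Those counts set no condition on coverage, and the 2 are given as single genes, not as a trait of the lists. The difference between the types was not tested. Mef2c, a transcription factor gene of cortical neurons, had H3K4me3 at 3.64% and 7.61% and H3K27me3 at 0% in both excitatory libraries, a mean difference of 5.62 points, and in inhibitory libraries H3K4me3 at 0% and H3K27me3 at 4.95% and 18.9%, a difference of -11.9 points. Pax6, a paired homeobox gene of cortical progenitors, had H3K4me3 at 0% and 16.1% and H3K27me3 at 18.3% and 19.1% in excitatory libraries, a difference of -10.7 points. In inhibitory libraries its H3K4me3 was 17.2% and 34.9% and its H3K27me3 3.70% and 0%, a difference of 24.2 points. The excitatory class of Pax6 rests on 1 H3K4me3 library. It was both marks without H3K4me3 replicate 1 or with the mark in either library. It was neither with -log10 p of at least 2 and with equal numbers of strongest peaks.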

How the results depend on the processing

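Class sizes depended on the peak threshold and the window. The both-marks class held 7145 genes with a window of 5 kb, 2321 at the annotated start, 2665 with 500 bases covered, 7546 with the mark in either library, and 788, 10 and 1874 with -log10 p of at least 2, of at least 3 and with equal numbers of strongest peaks, where H3K27me3 only held 454, 11 and 1368 and neither 7084, 8257 and 6277. Neither held 2193 with either library. Among genes with no other end within 10 kb the classes held 2659, 1770, 1621 and 2484. Leaving out 1 library gave 2174 to 3964 genes with H3K27me3 only. EGR1, H3K27ac and H3K4me1 were in both libraries at 69.4%, 55.1% and 88.0% of both-marks genes at 1 kb, at 85.6%, 82.1% and 95.0% at 5 kb, and at 68.8%, 53.0% and 89.3% at starts. At H3K27me3-only genes EGR1 and H3K4me1 were at 9.94% and 33.2% at 1 kb, 21.2% and 45.3% at 5 kb and 7.45% and 27.8% at starts. Genome windows of 4001 bases carried EGR1 in 11.7% and H3K4me1 in 31.0% of cases, so both start values lie below the genome rate. With -log10 p of at least 3 EGR1 was at 80.0% of the 10 both-marks and 9.09% of the 11 H3K27me3-only genes and H3K4me1 at 0% of either, and the median CpG ratios were 0.606 over 6 starts and 0.602 over 7. With 1 library left out, EGR1 was at 65.2% to 78.7% of both-marks and 7.31% to 13.4% of H3K27me3-only genes, H3K4me1 at 85.6% to 92.7% and 28.1% to 39.3%, and the CpG ratios were 0.580 to 0.652 and 0.201 to 0.232. The ratio of H3K27me3-only starts was 0.258 at 1 kb and 0.204 at 5 kb.

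For H3K4me1 limma called 0 genes without normalization, on log2(percent + 1), with no filter on coverage, at 1 kb, with -log10 p of at least 3 and with equal peak numbers, 55 with coverage in all 4 libraries, and 0 to 1505 with 1 library left out. EGR1 had 53 calls with no filter on coverage, and H3K27ac 0 to 998 with 1 library left out (757 and 998 without excitatory replicates 1 and 2). Fitted with a replicate block, limma called 849 genes for H3K4me1, 254 for H3K27ac and 0 for EGR1; same-numbered libraries did not deviate together (correlations of -0.017, 0.012 and 0.014 for EGR1, H3K27ac and H3K4me1), so the number is not read as a pairing. Of 252 values of the 24 H3K4me1 genes named under the alternatives, 83 kept direction and call, 167 kept direction and lost the call and 2 reversed: Vgf with equal peak numbers (-1.94 points) and Lmntd1 with -log10 p of at least 3 (-1.26). The causes were not tested.

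Depth is unknown, replicates are 2 per group and may be technical, and genes share windows. A gene called free of a mark may carry it below the threshold: 44.9% of H3K27me3-only genes had H3K4me3 in 1 library, and 14.7% of H3K4me3-only genes had H3K27me3 in 1.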

Other observations

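Genes of the germline and of other organs were spread over all classes in excitatory nuclei. Of 25 germline and meiosis genes 11 carried H3K27me3 alone, 4 both marks, 4 H3K4me3 alone and 6 neither, and of 32 liver, muscle, blood and epithelial genes 14 carried H3K27me3 alone, 10 both, 5 H3K4me3 alone and 3 neither. Of all genes 15.3% carried H3K27me3 alone, 19.4% both, 46.9% H3K4me3 alone and 18.4% neither, so the germline counts for both marks and for neither lie near those of all genes. Alb, the serum albumin gene, had 31.1% and 15.8% H3K27me3 in excitatory against 12.5% and 3.70% in inhibitory libraries, with 0% H3K4me3 in all 4. Prdm9, a histone methyltransferase gene of meiosis, carried H3K4me3 alone in excitatory nuclei, with 17.2% and 20.1% in excitatory against 21.3% and 19.9% in inhibitory libraries, and H3K27me3 at 6.26% and 0% against 10.5% and 28.4%. Cyp3a11 and Serpina1a, both expressed in liver, had 0% of either mark and of EGR1, H3K27ac and H3K4me1 in all libraries of both neuron types.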
